A study of Mus musculus with 12 samples.

Results

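Interferon response genes are the genes that cells switch on when an interferon binds its receptor. The 44 mouse genes described here were taken by symbol from a list of type I and type II (gamma) interferon response genes, and all 44 were present among the 55453 symbols counted in each heart library. A filter on low counts left 14757 genes for testing, among them 42 of the 44, while Oas3 and Cxcl10 stayed below it. RNA came from whole hearts of C57BL/6J mice in 4 groups of 3 animals: PDE10A knockout (KO) mice given doxorubicin (DOX), KO mice given vehicle, wild-type (WT) mice given DOX and WT mice given vehicle. PDE10A is a phosphodiesterase that degrades the second messengers cAMP and cGMP, and DOX is an anthracycline cancer drug that damages heart muscle. Per the labels' protocols, mice were male or female, DOX was 1 intraperitoneal bolus of 15 mg/kg followed for 7 days, and a pretreatment arm with a PDE10A inhibitor existed, but no library used here is labelled with that inhibitor. The labels give no age, no Cre or promoter and no breeding scheme for the KO mice, and the RNA comes from all cells of the heart.

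Interferons are secreted by cells that sense foreign or misplaced nucleic acid, and by T and NK cells in the case of interferon gamma. Type I interferons act through the receptor pair IFNAR1 and IFNAR2 and the kinases JAK1 and TYK2, which activate a transcription factor complex with STAT2 and IRF9; that complex binds the interferon-stimulated response element (ISRE) of target genes. Interferon gamma acts through IFNGR1, IFNGR2, JAK1 and JAK2, and its target genes carry the gamma-activated sequence (GAS). The targets include sensors of viral RNA, proteins that block viral replication, GTPases that attack intracellular microbes, and the machinery that shows peptides to T cells on MHC class I. In the heart these genes are expressed at a low level without infection and are known to respond to DNA and RNA released from damaged mitochondria.

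The ISRE letters stand in front of many of the genes. Examples from 6 of the 10 roles are shown because the type I complex named above binds this element. Whether it acts through the printed matches was not tested. Promoter windows of 300 bases, from 250 before to 50 after a start site, were available from RefSeq (GRCm38.p6) for 34 of the 44 genes. The ISRE core was searched on both strands as GAAA, any 2 bases, GAAA. In the stretches below, given 5′ to 3′ on the coding strand of the gene, capitals mark the first match to the core or to its reverse complement.
Stat2, chr10:128270261-128270300, plus strand: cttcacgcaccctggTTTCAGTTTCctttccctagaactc
Ifit1, chr19:34640770-34640809, plus strand: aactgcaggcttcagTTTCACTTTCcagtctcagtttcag
Ifit3, chr19:34583358-34583397, plus strand: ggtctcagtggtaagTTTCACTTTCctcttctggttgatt
Isg15, chr4:156200872-156200911, minus strand: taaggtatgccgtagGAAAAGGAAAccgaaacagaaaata
Gbp2, chr3:142620589-142620628, plus strand: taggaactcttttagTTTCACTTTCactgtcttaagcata
Gbp5, chr3:142496754-142496793, plus strand: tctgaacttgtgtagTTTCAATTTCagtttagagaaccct
B2m, chr2:122147533-122147572, plus strand: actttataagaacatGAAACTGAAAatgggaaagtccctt
Cxcl10, chr5:92349078-92349117, minus strand: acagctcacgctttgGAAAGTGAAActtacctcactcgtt

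The ISRE core was found in 20 of the 34 genes with a window (58.8%), and in 1079 of the 27025 genes in the whole promoter table (3.99%). It was present for 3 of the 4 IFIT genes, all 4 guanylate-binding protein genes, all 3 immunity-related GTPase genes with a window and 1 of the 6 class I presentation genes, B2m. Isg15 held 3 overlapping matches, and its first began 78 bases before the start site. The GAS core, searched on both strands as TTC, any 3 bases, GAA, was found in 10 of the 34 genes (29.4%) and in 9.55% of all genes, and it overlapped an ISRE match in 1 window, that of Bst2. No ISRE letters were found in the windows of Irf7 and Ifit2, which says only that these letters are not in those windows. Tap1 and Psmb9 are transcribed apart from each other, and their windows share 275 bases. These matches describe letters and are not measured binding sites.

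**Figure D1:**
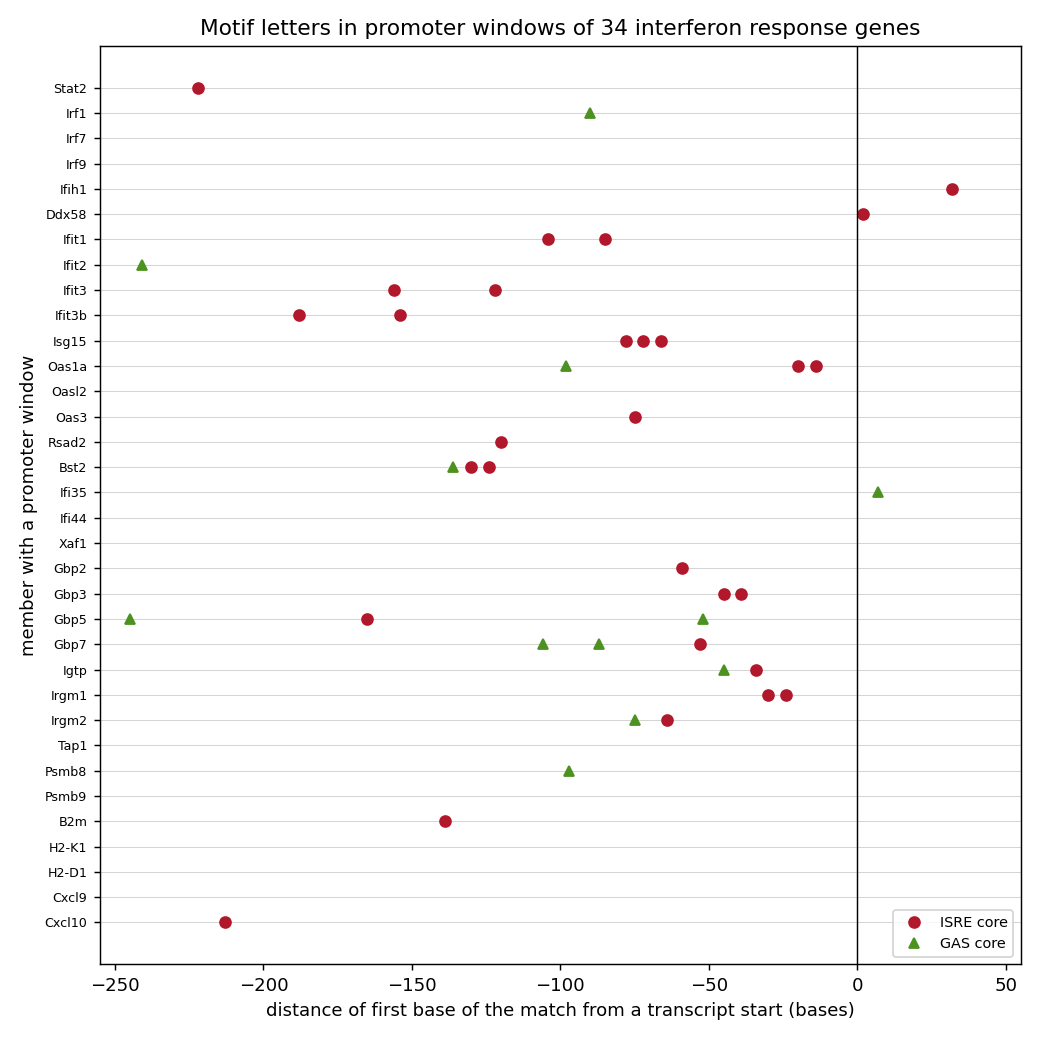
Positions of ISRE core matches (circles) and GAS core matches (triangles) in the promoter windows of 34 interferon response genes, as the distance in bases of the first base from a RefSeq transcript start. The first ISRE match of Isg15 begins at -78 and the ISRE match of Gbp5 at -165; genes such as Irf7, Irf9 and Cxcl9 have no mark.

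Library totals ranged from 23846398 to 32921876 counts, and the 44 genes together took 16111 to 30880 counts, or 0.0572% to 0.112%, of a library. Pde10a went against the KO label. It was at 8.27, 8.49 and 9.09 CPM (counts over the TMM-scaled library size) in the KO DOX libraries and 9.31, 11.9 and 9.13 CPM in the KO vehicle libraries, against 2.7, 2.08 and 1.79 CPM in the WT DOX libraries and 3.38, 1.00 and 1.86 CPM in the WT vehicle libraries. In edgeR's quasi-likelihood F test, used throughout with p-values adjusted over all tested genes by Benjamini and Hochberg, KO libraries were higher by a log2 fold change of 2.30 under vehicle (adjusted p = 0.0047) and of 1.98 under DOX (adjusted p = 0.0243). Below, "called" and "passed the test" refer to that test with the filter on low counts, unless another is named. Counts per gene cannot show whether the deleted part is missing, so "KO" below means the libraries labelled KO, and every genotype direction rests on that label. KO vehicle mice are numbered veh_3393 to veh_3395 in the titles and all other mice from 1 to 24. The labels do not say whether the KO vehicle mice came from another cohort, so cohort and group cannot be told apart for them.

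The 8 cardiomyocyte markers, which check the tissue label, summed to 51100 to 75600 CPM in the libraries. Macrophage markers (10 genes) summed to 141 to 269 CPM in KO DOX, 213 to 271 in KO vehicle, 217 to 247 in WT DOX and 165 to 337 in WT vehicle hearts. Neutrophil markers (8 genes) summed to 5.27 to 6.28 CPM in KO DOX, 7.68 to 11.7 in KO vehicle, 9.74 to 40.2 in WT DOX and 3.12 to 4.36 in WT vehicle hearts; 6 of the 7 tested rose with DOX in WT, where 9.39% of all genes were called higher. T and NK cell markers (10 genes) summed to 0.691 to 1.75 CPM and B cell markers (6 genes) to 0.264 to 2.35 CPM over all libraries. No marker in these lists was at 0 in every library. Plasmacytoid dendritic cell markers, the list of the main type I interferon source, could not be read as that cell type, because their sum of 1160 to 2350 CPM was mostly Cox6a2, which heart muscle also expresses. Endothelial markers (10 genes) summed to 895 to 1010 CPM in KO DOX, 825 to 934 in KO vehicle, 869 to 998 in WT DOX and 1040 to 1240 in WT vehicle hearts. Erythroid markers (5 genes) summed to 0.709 to 213 CPM in KO DOX and 46.5 to 253 in KO vehicle hearts, and to 0.144 to 0.395 in WT DOX and 50.8 to 172 in WT vehicle hearts. Fibroblast markers (8 genes) summed to 666 to 1460 CPM over all libraries. Atrial markers (6 genes) summed to 1710 CPM in KO DOX mouse 18 and 2270 CPM in KO vehicle mouse veh_3394, against 64.7 to 262 CPM in the other libraries. The part of these cell types in the results that follow was not tested, and in bulk RNA fewer cells of a type and less RNA per cell cannot be told apart.

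Levels per length, as RPKM (CPM divided by kilobases of annotated exon), put class I presentation at the top of the set. In WT vehicle hearts B2m, the light chain of MHC class I, was at 217 ± 36.6 RPKM (SD, n = 3), followed by the heavy chains H2-D1 at 61.6 ± 12.6 and H2-K1 at 46.2 ± 11.6 RPKM. Bst2, which tethers budding viruses to the cell, came next at 21.3 ± 10.1 RPKM and Ifi27 at 13.9 ± 4.84 RPKM. The lowest were Mx1 at 0.103 ± 0.0436, Cxcl10 at 0.0995 ± 0.0765 and Oas3 at 0.0212 ± 0.0169 RPKM. The 6 class I presentation genes held 56% of the CPM of the set in WT vehicle hearts and the 4 IFIT genes 2.19%, so a summed level mostly follows class I. Summed over the 44 genes, KO DOX hearts had 740 ± 144, KO vehicle hearts 856 ± 23, WT DOX hearts 822 ± 171 and WT vehicle hearts 912 ± 155 CPM (SD, n = 3 each). All of these ranges but that of KO vehicle were wide beside the differences between the groups.

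The interferons themselves were at or near the detection floor. The 21 interferon genes together had 0 to 2 counts in each library. Ifnb1, interferon beta, had 0 counts in all 12 libraries, and a count of 0 allows up to 3 counts, or 0.0864 to 0.134 CPM depending on the library. Ifng, interferon gamma, had 2 counts in WT vehicle mouse 3 and 1 count in KO vehicle mouse veh_3394, and none elsewhere. No change of a ligand was detectable at this depth, and these limits cover counting error only.

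Under DOX in WT hearts (WT DOX against WT vehicle) the set did not move as 1 block. Irf7 and Ifit2 rose, no gene of the set fell, and the other 40 tested genes did not pass the test. The 2 called higher are 4.76% of the 42, while 9.39% of all genes were called higher, and the 0 called lower stand against 9.2% of all genes. Fold changes were above 0 for 23 and below 0 for 19 of the 42, where 50% of all genes were on each side. The median log2 fold change was 0.04, with a range of -1.08 (Cxcl9) to 1.06 (Mx1), and the median of all genes was 0. Single mice decided the direction: without WT DOX mouse 22, 14 genes were above and 28 below 0 (median -0.15), and without WT DOX mouse 24, 30 were above and 13 below 0 (median 0.24). At an unadjusted p below 0.05 there were 4 higher and 3 lower in edgeR (9.52% and 7.14%, against 18.5% and 17.6% of all genes). DESeq2 called 2 higher and 2 lower (Cxcl9 and Ifi27), beside 1737 of all genes higher and 1720 lower. With limma-voom 4 were higher and 5 lower, beside 2940 and 2635 of all genes.

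Irf7, the transcription factor that amplifies type I interferon production, was at 13.7, 20.6 and 11.0 CPM in WT DOX mice 21, 22 and 24, against 6.63, 9.64 and 7.98 CPM in WT vehicle mice 1, 2 and 3. The groups did not overlap, as for 16.8% of all genes in that direction. The log2 fold change was 0.90 with an SE of 0.26 (adjusted p = 0.0362). In KO hearts Irf7 was at 13.3, 6.95 and 7.75 CPM with DOX and 9.69, 8.64 and 8.36 CPM with vehicle, where the groups overlapped and the log2 fold change was 0.07 with an SE of 0.26 (adjusted p = 0.997). Irf7 lies on the minus strand of chromosome 7, from 141262706 to 141266481 (GRCm38, GENCODE M21; positions matched by symbol, since the authors' build is not given in the sources used here). Its call in WT was lost without any 1 of 7 libraries, WT DOX mice 22 and 24, WT vehicle mice 1, 2 and 3 and KO vehicle mice veh_3393 and veh_3395, with log2 fold changes of 0.61 to 1.08 and adjusted p of 0.0227 to 0.147 over all 12 single omissions.

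Ifit2, one of the IFIT proteins that bind viral RNA and block its translation, was at 11.9, 26.4 and 13.5 CPM in WT DOX hearts, against 10.5, 8.12 and 9.96 CPM in WT vehicle hearts. Mouse 22 stood well above the other WT DOX mice, and the groups did not overlap. The log2 fold change was 0.86 with an SE of 0.25 (adjusted p = 0.0356). In KO hearts Ifit2 was at 12.4, 9.81 and 12.5 CPM with DOX and 13.5, 11.7 and 12.6 CPM with vehicle, an overlap with a log2 fold change of -0.12 and an SE of 0.25. Ifit2 lies on the plus strand of chromosome 19, from 34550694 to 34576419. Its call was lost without WT DOX mouse 22 or 24, WT vehicle mouse 2 or 3, KO DOX mouse 20 or KO vehicle mouse veh_3393 or veh_3395, with log2 fold changes of 0.42 to 1.07 and adjusted p of 0.0091 to 0.126 over the 12 omissions. With a fit of the WT groups alone neither Irf7 (adjusted p = 0.0898) nor Ifit2 (adjusted p = 0.115) was called, and that fit called 6 of all genes higher and 14 lower, in place of 1386 and 1357.

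**Figure D2:**
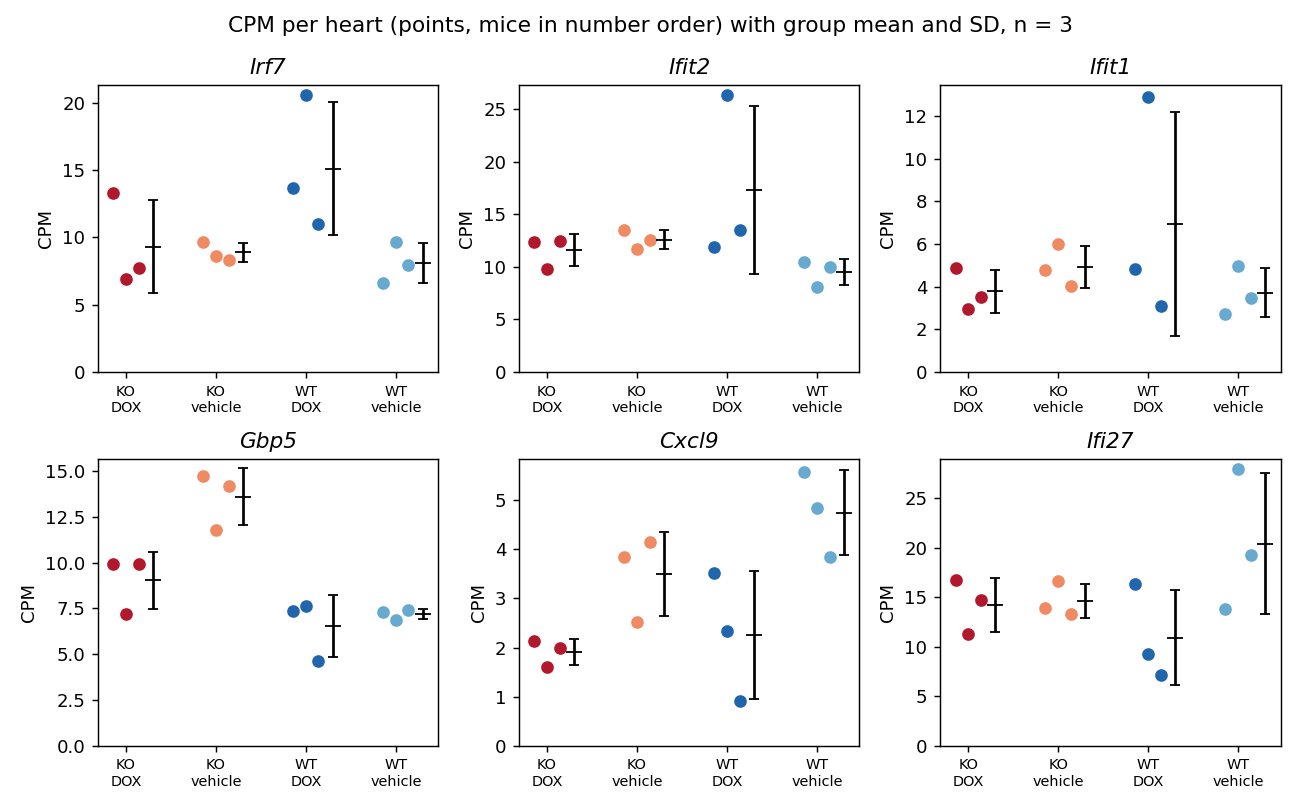
CPM of Irf7, Ifit2, Ifit1, Gbp5, Cxcl9 and Ifi27 in each heart (points, 3 mice per group in number order, linear axes from 0), with the group mean and SD as bars. One WT DOX mouse, number 22, is far above the others for Ifit1 (12.9 CPM) and Ifit2 (26.4 CPM), Gbp5 is highest in KO vehicle hearts, and Cxcl9 is lower in DOX than in vehicle hearts of both genotypes.

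Under DOX in KO hearts (KO DOX against KO vehicle) most of the set lay slightly lower, and no gene passed the test. Fold changes were below 0 for 37 of the 42 (88.1%), while 48.3% of all genes were below 0, and the median log2 fold change was -0.22, against 0.01 for all genes. The 0 called stand against 0.0136% of all genes. At an unadjusted p below 0.05 there were 6 lower (14.3%, against 2.88% of all genes) and 0 higher (against 2.47%), and the smallest adjusted p was 0.612. DESeq2 called 0 as well, beside 24 of all genes higher and 42 lower, as did limma-voom, beside 27 and 61. The KO DOX libraries lay wholly below the KO vehicle libraries for 11 genes (26.2%), and this held for 8.05% of all genes. Those 11 were Stat2, Irf1, Oas1a, Oas2, Mx2, Ifi35, Xaf1, Parp14, Gbp5, Iigp1 and Cxcl9. Without KO DOX mouse 19, 33 of 44 genes were below 0 and the median was -0.10. Without mouse 18 the median was -0.35, and 25 genes (59.5%, against 15.5% of all genes) lay wholly below. Macrophage markers summed to 269, 141 and 147 CPM in KO DOX mice 18, 19 and 20. The median log2 distance of the set from the WT vehicle mean was 0.03, -0.38 and -0.13 in those mice. In WT DOX mice 21, 22 and 24 the macrophage sums were close, 221, 247 and 217 CPM, while the medians were 0.08, 0.33 and -0.36. With DOX in KO, all 10 macrophage markers had a log2 fold change below 0 (median -0.44), with 0 called. So did 6 of 7 tested neutrophil markers and all 7 MHC class II genes. In contrast, 8 of 10 endothelial and 6 of 8 fibroblast markers were above 0 (median 0.16 each). None of these was called, and their part was not tested.

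The DOX effects in WT and in KO come from separate libraries and can be set beside each other. Of the 42 genes, 20 (47.6%) were above 0 with DOX in WT and below 0 with DOX in KO, as were 18.3% of all genes. Another 17 (40.5%) were below 0 in both, as were 30% of all genes. Both shares largely follow from the separate counts, 23 of the 42 above 0 in WT and 37 below 0 in KO. They therefore add no support for opposite responses. The difference of the effects, DOX in KO less DOX in WT, was below 0 for 30 of the 42 (71.4%, against 50.2% of all genes), with a median of -0.32 and 0 for all genes. So were 9 of the 10 macrophage markers (median -0.32, 0 called) and all 7 tested neutrophil markers (median -4.84, 3 called lower). Other lists went the other way: 8 of 10 endothelial markers (median 0.52), 6 of 8 fibroblast markers (0.68) and all 7 MHC class II genes (1.67) were above 0. So were 5 of 8 cardiomyocyte, 4 of 5 tested atrial and all 5 erythroid markers. None of those above 0 was called, and the part of all these markers was not tested. No gene of the set passed the edgeR test of the difference of the DOX effects, for which 0.108% of all genes were called higher and 0.102% lower. At an unadjusted p below 0.05 there were 5 lower (11.9%, against 7.91% of all genes) and 0 higher (against 8.11%). DESeq2 called 0, beside 181 of all genes higher and 192 lower. With limma-voom 5 were lower and 1 higher, beside 1072 and 976 of all genes. Stat2 had the smallest adjusted p, with a log2 difference of -0.61 and an SE of 0.18 (adjusted p = 0.18), and Ifit2 had -0.98 with an SE of 0.35 (adjusted p = 0.238). The median difference was -0.06 without WT DOX mouse 22 and -0.50 without WT DOX mouse 24.

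**Figure D3:**
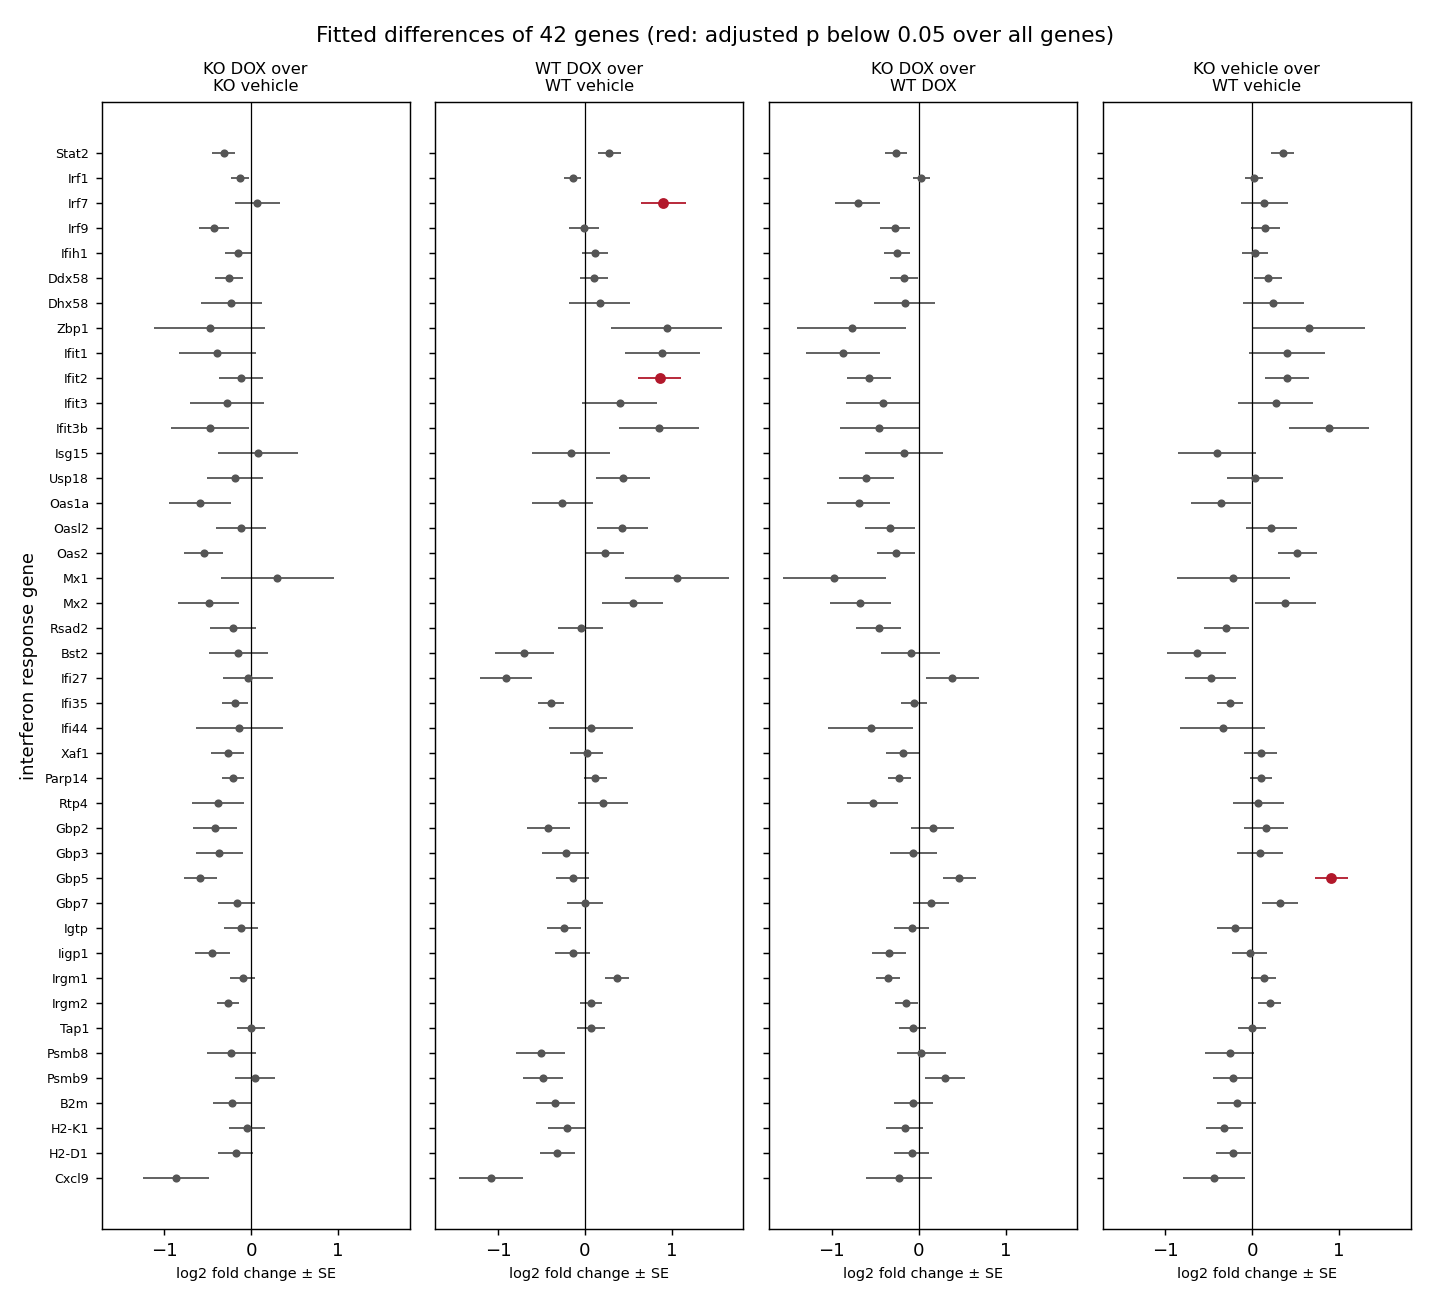
Log2 fold change and SE of each of the 42 tested genes (rows, ordered by role) in the pairs KO DOX over KO vehicle, WT DOX over WT vehicle, KO DOX over WT DOX and KO vehicle over WT vehicle. Called genes are red and larger: Irf7 and Ifit2 with DOX in WT, and Gbp5 in KO vehicle; in the KO DOX over KO vehicle panel 37 of 42 points lie left of 0.

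Between the vehicle groups (KO vehicle against WT vehicle) Gbp5 was the gene of the set that passed the test. It was higher, and is 2.38% of the 42, where 1.79% of all genes were called higher. In the set 0 were called lower, where 1.09% of all genes were. At an unadjusted p below 0.05 there were 3 higher (7.14%, against 13.3% of all genes) and 0 lower (against 12.7%). Both shares lay below the background. DESeq2 called Gbp5 higher and 0 lower, beside 793 and 889 of all genes. With limma-voom 5 were higher and 0 lower, beside 2774 and 2412 of all genes. Fold changes were above 0 for 25 and below 0 for 17 of the 42 (59.5% and 40.5%, against 52% and 48% of all genes), with a median of 0.08, against 0.02 for all genes. The KO vehicle libraries lay wholly above the WT vehicle libraries for 6 genes, Stat2, Ifit2, Oas2, Mx2, Gbp5 and Irgm2 (14.3%, against 16.5% of all genes). That share is close to the background.

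Gbp5, a guanylate-binding GTPase induced mainly by interferon gamma and known to promote inflammasome assembly, was at 14.7, 11.8 and 14.2 CPM in KO vehicle hearts, against 7.30, 6.87 and 7.42 CPM in WT vehicle hearts. Every KO vehicle heart was above every WT vehicle heart. The log2 fold change was 0.91 with an SE of 0.19 (adjusted p = 0.0302), a 1.88-fold difference. With DOX, Gbp5 was at 9.93, 7.21 and 9.94 CPM in KO and 7.37, 7.65 and 4.61 CPM in WT hearts, overlapping ranges with a log2 fold change of 0.47 and an SE of 0.19 (adjusted p = 0.263). Within KO, DOX hearts lay below vehicle hearts without overlap, by a log2 fold change of -0.59 with an SE of 0.19 (adjusted p = 0.612). Gbp5 lies on the plus strand of chromosome 3, from 142493978 to 142522344, and its stretch with the ISRE letters is among those printed above. The call in KO vehicle was lost without WT vehicle mouse 2 or 3, KO DOX mouse 20, or any of the KO vehicle mice veh_3393, veh_3394 and veh_3395, while the log2 fold change stayed between 0.85 and 1.01 and the adjusted p between 0.0134 and 0.118 over the 12 omissions.

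Between the DOX groups (KO DOX against WT DOX) most of the set lay lower in KO, and no gene passed the test. Fold changes were below 0 for 35 of the 42 (83.3%, against 47.7% of all genes), with a median of -0.23, against 0.01 for all genes. The 0 called stand against 0.42% of all genes. At an unadjusted p below 0.05, 3 were lower and 1 higher (7.14% and 2.38%, against 7.37% and 8.11% of all genes). DESeq2 called 0, beside 223 of all genes higher and 250 lower. With limma-voom 2 were lower, Irf7 and Irgm1, and 0 higher, beside 498 and 492 of all genes. Of the macrophage markers 9 of 10 were below 0 (median -0.34, 0 called), as were all 7 tested neutrophil markers (median -2.43, 2 called lower). Other lists went the other way: 6 of 8 fibroblast markers (median 0.55), 6 of 7 MHC class II genes (0.24) and 6 of 10 endothelial markers (0.06) were above 0. So were 7 of 8 cardiomyocyte, all 5 tested atrial and all 5 erythroid markers. None of those above 0 was called, and the part of all these markers was not tested. The groups were apart for Iigp1 alone, 2.38% of the 42 against 9.75% of all genes in that direction. This comparison shares its WT DOX libraries with the DOX effect in WT and its KO DOX libraries with that in KO. Without WT DOX mouse 22 the genes below 0 were 25 of 42 and the median was -0.04, and without WT DOX mouse 24 they were 40 of 43 and the median was -0.38.

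Much of the variation in the set was between animals of 1 group. The median log2 distance of the 42 genes from the WT vehicle mean, computed as log2(CPM + 0.5), was 0.03, -0.38 and -0.13 in KO DOX mice 18, 19 and 20, and 0.06, 0.08 and 0.04 in KO vehicle mice veh_3393, veh_3394 and veh_3395. It was 0.08, 0.33 and -0.36 in WT DOX mice 21, 22 and 24, and -0.23, 0.16 and 0.02 in WT vehicle mice 1, 2 and 3. KO vehicle hearts were the most alike, and WT DOX hearts held both the highest and nearly the lowest value. All genes together had medians of -0.01 to 0.04, which the scaling itself holds near 0. WT DOX mouse 22 was above WT DOX mouse 24 for all 42 genes, as for 49.8% of all genes, and at least 2-fold above it for 16 (38.1%, against 2.97% of all genes), with a median of 1.72-fold.

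WT DOX mouse 22 had the highest of the 12 values for 20 of the 42 genes (47.6%, against 11.8% of all genes). They included all 4 IFIT genes, all 4 sensors and 7 of the 10 other antiviral genes, but 0 of the 6 class I presentation genes. WT vehicle mouse 2 was highest for 11 genes (26.2%, against 24.2% of all genes), a share close to the background; 4 of them were class I presentation genes. The members highest in mouse 22 had a median exon length of 3856 bases and those highest in WT vehicle mouse 2 of 1885 bases, against 3637 bases over the 42; the part of transcript length was not tested. At the low end, KO DOX mouse 19 was among the 3 lowest libraries for 38 genes (90.5%, against 23.6% of all genes) and WT DOX mouse 24 for 35 (83.3%, against 32.4%). Neutrophil markers summed to 9.74, 40.2 and 30.9 CPM in WT DOX mice 21, 22 and 24, and their part was not tested. Over the 12 libraries the highest value was a median of 2.54 times the lowest for the set and 1.9 times for all genes, and the widest were Mx1 (9.0), Zbp1 (7.74), Ifi44 (7.34) and Cxcl9 (6.04).

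**Figure D4:**
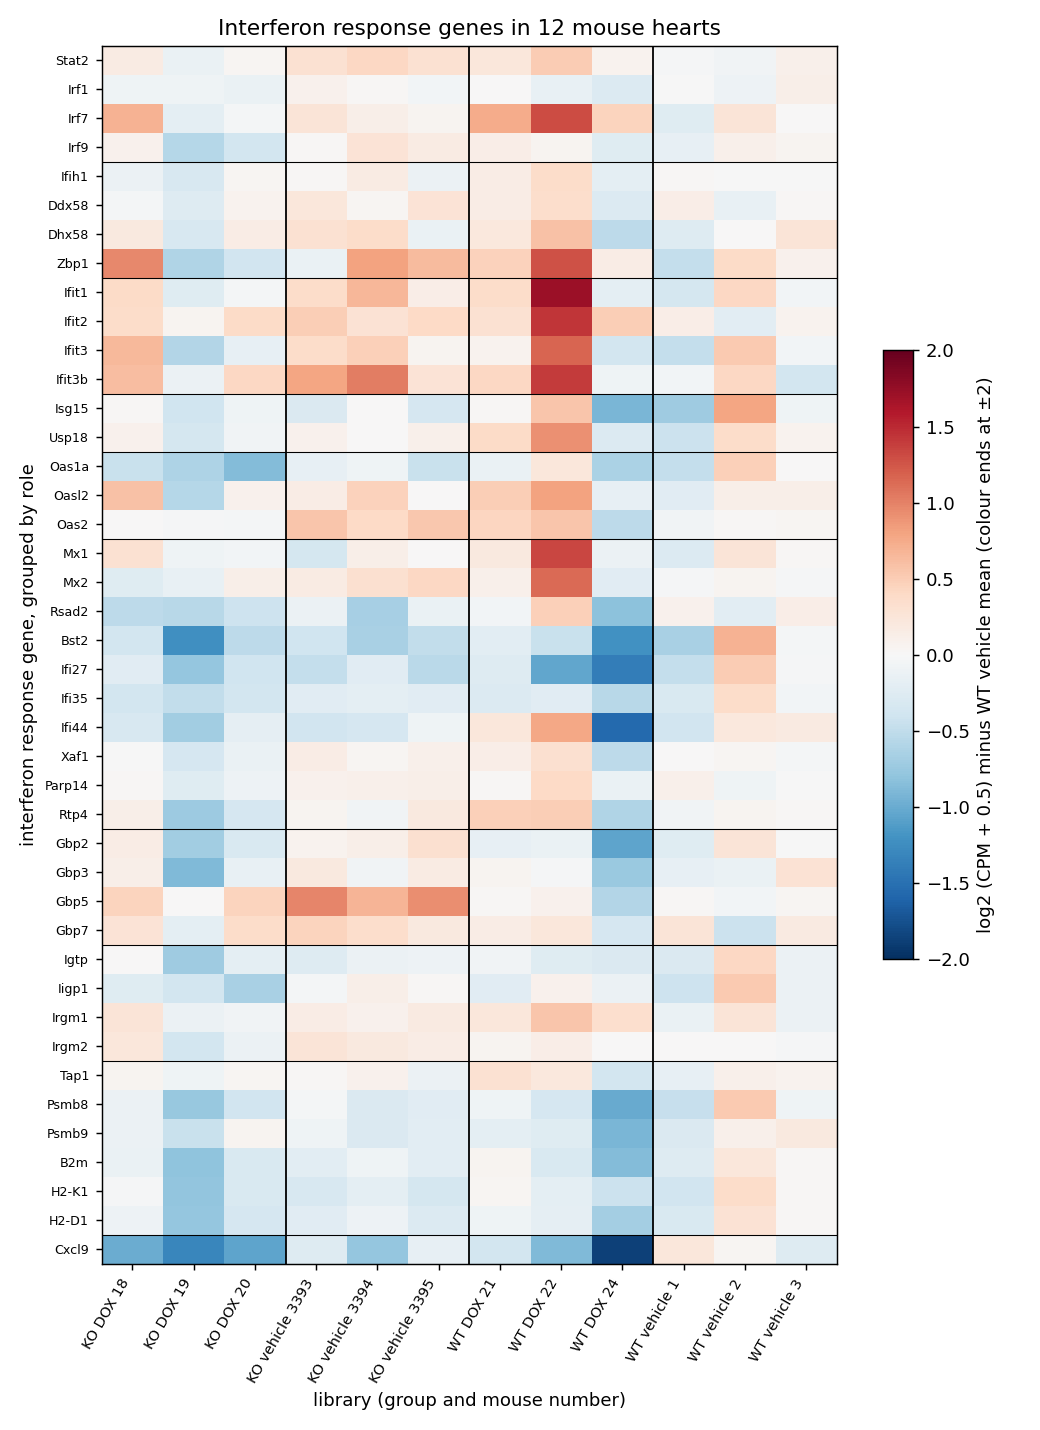
Heat map of log2(CPM + 0.5) minus the WT vehicle mean for the 42 tested genes (rows, grouped by role) in the 12 libraries (columns, KO DOX, KO vehicle, WT DOX and WT vehicle). The column of WT DOX mouse 22 is red over sensors and IFIT genes, and those of KO DOX mouse 19 and WT DOX mouse 24 are blue over most genes, with medians of 0.33, -0.38 and -0.36.

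Among the 4 transcription factors, Irf7 was the gene called in edgeR; limma-voom also called Irf1 lower with DOX in WT and Stat2 higher in KO vehicle than in WT vehicle hearts. Stat2, the partner of IRF9 in the type I complex, was at 19.9, 16.0 and 18.2 CPM in KO DOX, 21.8, 23.9 and 21.9 in KO vehicle, 20.7, 25.4 and 18.6 in WT DOX and 17.3, 16.8 and 19 in WT vehicle hearts. KO vehicle hearts were above WT vehicle hearts and above KO DOX hearts without overlap, with log2 fold changes of 0.35 (SE 0.13, adjusted p = 0.112) for KO vehicle over WT vehicle and -0.32 (SE 0.13, adjusted p = 0.807) for KO DOX over KO vehicle. Irf9, the DNA-binding partner in that complex, was at 16.5, 10.4 and 11.9 CPM in KO DOX, 15.8, 18.9 and 17.5 in KO vehicle, 17.3, 16.3 and 13.2 in WT DOX and 14, 16.9 and 16.2 in WT vehicle hearts. Its groups overlapped, with a log2 fold change of -0.43 with DOX in KO (SE 0.17, adjusted p = 0.804) and of -0.01 with DOX in WT, whose sign turned with the scaling. Irf1, an early factor of the gamma response, was the least variable of the set, from 17.2 to 22.7 CPM over the 12 libraries. Its log2 fold changes with DOX were -0.13 in KO and -0.14 in WT, each with an SE of 0.10.

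The sensors Ifih1 (MDA5), Ddx58 (RIG-I) and Dhx58 (LGP2), which detect double-stranded RNA, and Zbp1, which detects Z-form nucleic acid and can trigger cell death, had 4 of 4 fold changes below 0 with DOX in KO and 4 of 4 above 0 with DOX in WT, none called. Zbp1 was at 1.93, 0.329 and 0.462 CPM in KO DOX, 0.646, 1.70 and 1.45 in KO vehicle, 1.22, 2.55 and 0.893 in WT DOX and 0.401, 1.14 and 0.833 in WT vehicle hearts. Each group spread widely and overlapped the others. Its log2 fold change was -0.48 with DOX in KO and 0.94 with DOX in WT, with an SE of 0.64 each.

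All 4 IFIT genes were likewise below 0 with DOX in KO (median -0.33) and above 0 with DOX in WT (median 0.85), with Ifit2 the called gene. Ifit1 was at 4.88, 2.96 and 3.51 CPM in KO DOX, 4.79, 6.00 and 4.01 in KO vehicle, 4.82, 12.9 and 3.11 in WT DOX and 2.72, 4.97 and 3.45 in WT vehicle hearts. The value of WT DOX mouse 22 was far from those of its group, and the log2 fold change with DOX in WT was 0.89 (SE 0.43, adjusted p = 0.158) with it and 0.08 without it. Ifit3 was at 8.43, 3.29 and 4.59 CPM in KO DOX, 6.88, 7.40 and 5.42 in KO vehicle, 5.46, 12.3 and 3.92 in WT DOX and 3.61, 7.67 and 5.00 in WT vehicle hearts. Its log2 fold change with DOX in WT was 0.40 (SE 0.43), and -0.22 without mouse 22. Ifit3b, a near-identical neighbour of Ifit3 whose reads may be split between the genes, was at 2.55, 3.06 and 1.62 CPM in KO vehicle and 1.20, 1.83 and 0.873 CPM in WT vehicle hearts, an overlap with a log2 fold change of 0.88 (SE 0.46, adjusted p = 0.244).

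Isg15, the ubiquitin-like protein attached to other proteins during the response, was at 2.80, 1.94 and 2.54 CPM in KO DOX, 2.13, 2.72 and 2.05 in KO vehicle, 2.77, 4.26 and 1.21 in WT DOX and 1.47, 5.08 and 2.54 in WT vehicle hearts. Spread within the WT groups exceeded any difference between them, and the log2 fold changes were 0.08 with DOX in KO and -0.16 with DOX in WT, with SEs of 0.46 and 0.45; both signs turned under other settings. Usp18, which removes ISG15 and damps the receptor, ranged from 1.91 to 5.64 CPM over the libraries, and its highest value was in WT DOX mouse 22. The oligoadenylate synthetases, which activate RNase L, had 3 of 3 tested fold changes below 0 with DOX in KO, none called. Oas1a was at 1.14, 0.951 and 0.732 CPM in KO DOX hearts and 1.48, 1.62 and 1.15 CPM in KO vehicle hearts. These groups did not overlap, and the log2 fold change was -0.59 (SE 0.36, adjusted p = 0.997). Oas1a has close relatives in a gene cluster, so its counts are uncertain. Oas3, not tested, had 5, 6 and 7 counts in KO DOX, 9, 9 and 4 in KO vehicle, 4, 18 and 22 in WT DOX and 3, 8 and 1 in WT vehicle libraries.

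The 10 other antiviral and type I induced genes had 9 of 10 fold changes below 0 with DOX in KO and 6 above and 4 below 0 with DOX in WT, none called. Mx1, a dynamin-like GTPase whose C57BL/6 allele is non-functional, was at 0.591, 0.329 and 0.347 CPM in KO DOX, 0.190, 0.453 and 0.384 in KO vehicle, 0.503, 1.71 and 0.317 in WT DOX and 0.223, 0.553 and 0.397 in WT vehicle hearts. WT DOX mouse 22 again stood apart: the log2 fold change with DOX in WT was 1.06 (SE 0.60, adjusted p = 0.217) with it and 0.03 without it. For KO DOX over WT DOX it was -0.97 (SE 0.59), and 0.05 without that mouse. Ifi27 was at 16.7, 11.3 and 14.7 CPM in KO DOX, 13.9, 16.6 and 13.3 in KO vehicle, 16.3, 9.28 and 7.17 in WT DOX and 13.8, 27.9 and 19.3 in WT vehicle hearts. The WT groups overlapped, and the log2 fold change of -0.91 (SE 0.30) had an adjusted p = 0.0509, just over the threshold, and 0.00704 to 0.215 over the single omissions. Bst2 was at 13.8, 7.39 and 12.3 CPM in KO DOX, 13.5, 11.2 and 12.5 in KO vehicle, 15.4, 13.0 and 7.43 in WT DOX and 11.2, 29.2 and 17.4 in WT vehicle hearts, with no call in edgeR, and its highest value was in WT vehicle mouse 2. Without the filter on low counts Bst2 was called lower with DOX in WT and in KO vehicle against WT vehicle.

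The guanylate-binding proteins and the immunity-related GTPases, which are recruited to vacuoles that hold microbes, had 8 of 8 fold changes below 0 with DOX in KO, none called; without the filter on low counts Gbp5 was called lower. Gbp2 was at 22.1, 12.1 and 16.1 CPM in KO DOX, 20.8, 21.6 and 25.0 in KO vehicle, 17.8, 18.1 and 9.33 in WT DOX and 16.7, 23.8 and 19.8 in WT vehicle hearts. The groups of each pair compared overlapped. The log2 fold change was -0.42 with an SE of 0.25 for DOX in KO and for DOX in WT alike. Among the GTPases, Iigp1 was at 35.0, 32.3 and 26.5 CPM in KO DOX and 40.4, 45.1 and 42.2 CPM in KO vehicle hearts. WT DOX hearts had 35.5, 44.1 and 38.6 CPM and WT vehicle hearts 31.3, 60.5 and 38.3 CPM. KO DOX hearts lay below KO vehicle and WT DOX hearts but overlapped WT vehicle hearts. The log2 fold changes were -0.45 for KO DOX over KO vehicle (SE 0.20, adjusted p = 0.883) and -0.34 for KO DOX over WT DOX (SE 0.20, adjusted p = 0.442). Iigp1 was singled out after its values were seen. Members of these families are alike in sequence, so reads may be shared among them.

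No class I presentation gene was called in edgeR in any comparison, with 5 of 6 fold changes below 0 with DOX in WT and 4 of 6 with DOX in KO. B2m was at 169, 106 and 149 CPM in KO DOX, 160, 175 and 160 in KO vehicle, 192, 148 and 101 in WT DOX and 154, 217 and 187 in WT vehicle hearts. The heavy chain H2-K1 was at 130, 76.8 and 108 CPM in KO DOX, 106, 116 and 104 in KO vehicle, 137, 117 and 98.3 in WT DOX and 102, 170 and 135 in WT vehicle hearts. Both were lowest or nearly so in KO DOX mouse 19 and WT DOX mouse 24 and highest in WT vehicle mouse 2, and the log2 fold changes with DOX in WT were -0.34 for B2m (SE 0.22) and -0.21 for H2-K1 (SE 0.21). Psmb8, a subunit of the immunoproteasome that cuts the peptides, was at 12.8, 8.05 and 10.5 CPM in KO DOX, 13.5, 11.3 and 11.8 in KO vehicle, 13.2, 11.0 and 6.68 in WT DOX and 10.0, 20.4 and 13.2 in WT vehicle hearts. Its log2 fold change with DOX in WT was -0.51 (SE 0.28, adjusted p = 0.2). Tap1, the transporter of those peptides, had log2 fold changes of 0.00 with DOX in KO and 0.07 with DOX in WT. With DOX in WT, Psmb8 was called lower without the filter and Psmb9, another immunoproteasome subunit, was called lower by limma-voom. H2-K1 and H2-D1 are alike in sequence, and their separate counts are uncertain.

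Cxcl9, a chemokine that draws T cells through CXCR3 and is induced by interferon gamma, was at 2.13, 1.61 and 2.00 CPM in KO DOX hearts and 3.84, 2.53 and 4.14 CPM in KO vehicle hearts. In WT it was at 3.52, 2.33 and 0.921 CPM with DOX and 5.57, 4.84 and 3.85 CPM with vehicle. DOX hearts lay below vehicle hearts without overlap in both genotypes, as 8.05% of all genes did in KO and 15.8% in WT. The log2 fold changes were -0.87 in KO (SE 0.38, adjusted p = 0.88) and -1.08 in WT (SE 0.37, adjusted p = 0.0576), and the difference between them was 0.21 (SE 0.52, adjusted p = 0.856). Cxcl10, the related chemokine, had 2, 1 and 4 counts in KO DOX, 7, 3 and 3 in KO vehicle, 3, 21 and 5 in WT DOX and 4, 12 and 2 in WT vehicle libraries. These counts are too few for a test.

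Upstream of the set, 1 of the 6 interferon receptor genes passed the test with DOX in WT, where 9.2% of all genes were called lower and 9.39% higher. Ifngr2, a chain of the interferon gamma receptor, fell with DOX in WT to 113, 67.9 and 71.6 CPM, against 128, 128 and 114 CPM with vehicle, by a log2 fold change of -0.55 (SE 0.17, adjusted p = 0.043). Its values in KO were 110, 105 and 128 CPM with DOX and 150, 131 and 157 CPM with vehicle (log2 fold change -0.35, SE 0.17, adjusted p = 0.983). Ifngr1 had a log2 fold change with DOX of -0.37 in KO and -0.30 in WT, neither called and neither with overlapping groups, and the type I receptor genes Ifnar1 and Ifnar2 lay between -0.11 and 0.11 in both genotypes. Among the kinases and other STATs, Stat3, which carries cytokine signals such as that of interleukin-6, was the called gene. It rose with DOX in WT to 117, 231 and 208 CPM, against 91.7, 90.5 and 91.5 CPM with vehicle, by a log2 fold change of 1.02 (SE 0.20, adjusted p = 0.0139). Jak1 (log2 fold change 0.07), Jak2 (0.19) and Tyk2 (-0.10) were not called with DOX in WT.

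A few negative regulators and nucleic acid sensing genes were called, all with DOX in WT or in KO vehicle. The shares of all genes called with DOX in WT, 9.39% higher and 9.2% lower, are the background for these counts. Of 6 inhibitors of JAK-STAT signalling, Ptpn11 (log2 fold change 0.77, adjusted p = 0.0172) and Pias1 (0.39, adjusted p = 0.0433) rose with DOX in WT. Of 15 tested sensing and adaptor genes, 1 rose and 1 fell with DOX in WT, both below that background as shares. Eif2ak2, the RNA-activated kinase PKR, rose with DOX in WT (0.65, SE 0.19, adjusted p = 0.0361). Irf3, the factor that starts interferon production, fell with DOX in WT (-0.44, SE 0.11, adjusted p = 0.0216) and was lower in KO vehicle than in WT vehicle hearts (-0.48, SE 0.11, adjusted p = 0.0379). Irf3 had 31.2, 25.8 and 27.4 CPM in WT DOX and 28.9, 26.8 and 26.3 CPM in KO vehicle hearts, each below the 33.0, 40.3 and 41.1 CPM of the WT vehicle hearts. Those comparisons share the WT vehicle libraries.

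Interferon-induced genes outside the set were read from 2 further lists. Of 44 other type I induced genes, 4 rose and 0 fell with DOX in WT, where 9.39% of all genes were called higher, a share close to that of the list. They were Slfn1, a schlafen family gene (2.76, SE 0.52, adjusted p = 0.0129), Znfx1, a helicase that binds viral RNA (0.56, SE 0.12, adjusted p = 0.0159), Ifitm1, which blocks viral entry (1.02, SE 0.27, adjusted p = 0.0281), and Helz2 (0.72, SE 0.22, adjusted p = 0.0411). Ifitm1 was at 1.89, 1.57 and 1.70 CPM in KO DOX, 3.23, 3.77 and 3.76 in KO vehicle, 2.59, 6.44 and 4.98 in WT DOX and 1.91, 2.63 and 2.34 in WT vehicle hearts. KO DOX hearts were below all other groups, with an adjusted p = 0.0558 for the difference of the DOX effects. Znfx1 was also higher in KO vehicle than in WT vehicle hearts (0.50, SE 0.12, adjusted p = 0.0413). Of 29 tested genes known mainly from the interferon gamma response, 1 rose and 2 fell with DOX in WT, smaller shares than the 9.39% and 9.2% of all genes. Gbp6 rose with DOX in WT (1.16, SE 0.24, adjusted p = 0.0155), and Psme1 (-0.64, SE 0.16, adjusted p = 0.0233) and Psme2 (-0.50, SE 0.16, adjusted p = 0.044), the proteasome activator subunits, fell. No gene of these lists was called with DOX in KO, between the DOX groups or for the difference of the DOX effects.

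MHC class II genes, which interferon gamma induces through Ciita but which dendritic cells and B cells also express without it, moved apart from class I. All 7, with Ciita, fell with DOX in WT, where 9.2% of all genes were called lower. Their log2 fold changes ran from -3.22 (Ciita) to -1.83, against -0.51 to 0.07 for the 6 class I presentation genes. Summed class II levels were 34.9 to 61.7 CPM in KO DOX, 103 to 125 in KO vehicle, 9.59 to 107 in WT DOX and 208 to 437 in WT vehicle hearts. With DOX in KO all 7 were below 0 and none was called. WT DOX mouse 21 held the 107 CPM, while mice 22 and 24 had 13.6 and 9.59 CPM; mouse 22 was the highest and mouse 24 the lowest of the WT DOX mice in the interferon response genes.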

How the data were processed

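RNA of 12 mouse hearts was sequenced from poly(A) libraries made with a stranded kit, per the labels' protocols. The authors deposited whole-number read counts per gene symbol, 1 table per library; the submitters' processing notes name featureCounts, Subread 1.6.4, STAR 2.7.0f and fastp 0.20.0. Not given in the sources used here are the build, annotation, strand setting and handling of multi-mapping reads, so counts of near-identical genes, and of genes that overlap a neighbour, are uncertain.

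The 44 genes were matched by symbol. The members and lists were chosen with earlier results of these data known, so no list count here is independent support. The deposited counts went unchanged into edgeR 4.0.16 (R 4.3.3): filterByExpr by group (14757 genes), TMM scaling, 1 mean per group over all 12 libraries, and its quasi-likelihood F test, called at a Benjamini-Hochberg adjusted p under 0.05 over all tested genes. The comparisons were DOX against vehicle within KO and within WT, KO against WT under DOX and under vehicle, and the difference of the DOX effects. SE is the fold change over the root of F. CPM used TMM-scaled library sizes, and RPKM used exon lengths of GENCODE M21. The test was tried on simulated counts with known changes. Totals of 23846398 to 32921876 counts leave genes with a few counts imprecise. A p-value sets a difference against the spread between mice within groups, estimated over all 4 groups together. Libraries outside a pair therefore also move its p-values. Groups differed in spread: the SD of the per-library median of the set was 0.02 in KO vehicle and 0.349 in WT DOX hearts.

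Genes named with all values are those called, the 2 highest and 2 lowest fold changes per pair, and 14 chosen by role; of the other lists, up to 4 called genes per comparison are named, besides receptors and kinases. Alternatives were DESeq2 size factors, no TMM, no filter, 1 CPM in 3 libraries, DESeq2 1.42.0, limma-voom (limma 3.58.1) with quality weights, a fit restricted to each pair of groups, a term for the title suffix, and leaving out libraries.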

Additional observations from a re-analysis of the deposited data

How the results depend on the processing

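Counts of called genes in the set moved with the processing, and each count here is out of 41 to 44 tested genes. With DOX in WT, where Irf7 and Ifit2 were called higher, the number higher was 4 without the filter, 4 with limma-voom, 0 with a fit of the WT groups alone, 0 with a term for the title suffix, and 1 without KO DOX mouse 18 and KO vehicle mouse veh_3394 together. The number lower, 0 as reported, was 1 with DESeq2 size factors, 5 without the filter, 1 with the filter of 1 CPM in 3 libraries, 2 with DESeq2 and 5 with limma-voom; leaving out single libraries gave 0 to 3 higher and 0 to 3 lower. With DOX in KO, 1 was lower without the filter. In KO vehicle against WT vehicle, where Gbp5 was called, 3 were higher and 2 lower without the filter, 5 were higher with limma-voom, 0 were higher without mice 18 and veh_3394 together, and single omissions gave 0 to 2 higher. In KO DOX against WT DOX, 3 were lower without the filter and 2 with limma-voom. For the difference of the DOX effects, 1 was higher and 5 lower both without the filter and with limma-voom, single omissions gave 0 to 1 lower, and the median ran from -0.50 to -0.06. Counts over all genes moved too: with DOX in WT they were 1386 higher and 1357 lower as reported, 2940 and 2635 with limma-voom, and 101 and 84 without WT DOX mouse 22. Without TMM the split over all genes was 1845 higher and 941 lower. With limma-voom, all genes called were 2774 higher and 2412 lower in KO vehicle against WT vehicle. In KO DOX against WT DOX they were 492 and 498, and for the difference of the DOX effects 976 and 1072. Without the filter they were 1703 and 1778 with DOX in WT and 125 and 184 with DOX in KO. Between the vehicle groups that fit called 1080 and 1008, between the DOX groups 611 and 541, and for the difference 538 and 555. The causes were not tested.

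Signs turned for a few genes that were not called. With DOX in WT, Irf9 was 0.03 without TMM, 0.02 with the title suffix and -0.09 to 0.10 over single omissions; Isg15 was 0.02 under limma-voom, 0.02 under the suffix term and -0.63 to 0.44 over omissions; and Ifit3 was -0.22 to 0.74. With DOX in KO, Irf7 was -0.10 with limma-voom, -0.30 without mice 18 and veh_3394 together and -0.28 to 0.24 over omissions; H2-K1 was 0.04 with the title suffix and -0.23 to 0.13; Mx1 was -0.01 to 0.56; and Isg15 was -0.04 to 0.21. For KO DOX against WT DOX, Mx1 was -1.38 to 0.05. For Ifi27, DOX in WT passed the threshold with DESeq2 (adjusted p = 0.0143) and limma-voom (adjusted p = 0.00313). For Cxcl9, DOX in WT likewise passed it with DESeq2 (adjusted p = 0.0212) and limma-voom (adjusted p = 0.0171).

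No paired analysis was possible because mouse numbers differ between the groups. The 3 hearts per group limit what can be told, as does the pooled SD of the set's median log2 level within groups, 0.23. That SD describes single libraries and is not the error of a difference between groups. Median log2 fold changes of the set between pairs of groups ran from -0.23 to 0.08. The median for the difference of the DOX effects was -0.32. Zbp1, Mx1, Oas3 and Cxcl10 rest on few counts.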
